A study of Mus musculus with 6 samples.

Results

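Antiviral interferon-stimulated genes were examined in fibroblasts sorted from mouse synovium, the membrane that lines joints. These genes are switched on by type I and type III interferons and code for proteins that block viruses at entry, at replication, at translation or at release. The set was chosen by name, as genes with a textbook antiviral or interferon-induced role, and with earlier results of these data known. Shares over the set are thus description, and no set test was run. Of 42 genes named, all were in the table of 24348 genes, and 41 reached 10 counts in at least 3 of 6 libraries and were tested among 19925 genes. The gene left out was Epsti1, with 0, 5 and 5 counts after IC and 9, 0 and 0 after vehicle. The filter did not act on the other 41 genes, since the lowest count of any of them in any library was 22, for Oas3.

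Synovium was dissected whole from adult wild-type C57BL/6 mice (C57BL/6J background by the study's methods), digested with collagenase and sorted for fibroblasts, and total RNA was sequenced. The 3 IC libraries came from mice given immune complexes, ovalbumin bound by antibody, into a vein, and the 3 vehicle libraries came from mice given the control injection. The time between injection and dissection for these libraries, the markers of the sort gate and the number of mice behind each library are not given in the sources used here, so p-values measure the spread between libraries, which may be technical in part. In bulk RNA, fewer or more cells that express a gene cannot be told apart from less or more RNA per cell.

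Total counts were 40114331 to 56714304 per library, and depth overlapped between groups. The labelled cell type was checked against its markers, and the summed fibroblast markers (Col1a1, Col1a2, Col3a1, Pdgfra, Pdpn, Thy1, Prg4, Dcn, Lum) took 44329 to 46047 CPM (reads per 1000000 counted) after IC and 45237 to 55084 after vehicle. Macrophage and leukocyte markers took 25.6 to 37.7 CPM after IC and 29.4 to 35.1 after vehicle, most of it Cd68, and Ptprc, Adgre1, C1qa and Itgam were not analysed here. Some libraries held traces of other tissue that moved with the groups. Summed skeletal muscle markers were 16.3 to 45.7 CPM after IC and 48.5 to 105 after vehicle, summed endothelial markers were 192 to 253 after IC and 263 to 303 after vehicle, and summed mural cell markers were 397 to 496 after IC and 500.2 to 544 after vehicle. Within the fibroblast list, Prg4, which codes for lubricin, was called higher after IC, which here means an adjusted p under 0.05 (0.94 ± 0.25 as a log2 fold change, DESeq2 adjusted p = 0.0103), and the matrix genes Col3a1 (-0.38 ± 0.10, adjusted p = 0.00679) and Lum (-0.36 ± 0.086, adjusted p = 0.00250) were called lower. edgeR called 0 of the 3 (adjusted p = 0.0541 for Prg4, 0.177 for Col3a1 and 0.135 for Lum), and the DESeq2 call of Prg4 was lost without IC replicate 3 (adjusted p = 0.153), IC replicate 2 or vehicle replicate 3, that of Col3a1 without replicates 1 or 2 of IC or 2 or 3 of vehicle, and that of Lum without vehicle replicate 3. The part of these traces in the results was not tested.

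Interferon binds a receptor at the cell surface, and the kinases Jak1 and Tyk2 then phosphorylate signalling factors, among them Stat2. With Irf9 it forms part of a complex that enters the nucleus and binds a short repeated element, the interferon-stimulated response element, in front of the antiviral genes. Fibroblasts make and answer type I interferon, and many of the proteins are present at a low level before any stimulus. The 41 genes were grouped by function into IFIT RNA-binding proteins (Ifit1, Ifit2, Ifit3, Ifit3b), membrane restriction factors (Ifitm1, Ifitm2, Ifitm3, Bst2), the ISG15 conjugation system (Isg15, Usp18, Herc6, Trim25), enzymes that act on double-stranded RNA or are activated by it, with their relatives (Oas1a, Oas2, Oas3, Oasl1, Oasl2, Eif2ak2, Adar), nucleotide and nuclease enzymes (Rsad2, Cmpk2, Samhd1, Isg20), Mx GTPases (Mx1, Mx2), ADP-ribosylation factors (Parp9, Parp12, Parp14, Dtx3l) and 12 other induced genes (Helz2, Trim30a, Sp100, Phf11d, Xaf1, Samd9l, Rtp4, Lgals3bp, Tor3a, Ifi27, Ifi35, Ifi44).

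The antiviral genes stood higher after IC, by an amount that differed between the IC libraries. DESeq2 called 419 of 19925 tested genes (2.1%), 205 higher and 214 lower. Of the antiviral genes, 7 of 41 rose at an adjusted p under 0.05 (Ifit3b, Oas1a, Oasl1, Eif2ak2, Adar, Mx2 and Helz2), 17.1% against 1.03% of all tested genes, and 0 fell (all tested genes, 1.07%). Log2 fold changes were above 0 in 39 of 41, against 49.6% of all tested genes, with a median of 0.49 over the set and -0.0019 over all tested genes. At an unadjusted p under 0.05, 22 of 41 were higher, against 4.91% of all tested genes. The quasi-likelihood test of edgeR called 0 of 41, with adjusted p-values of 0.0978 to 0.949, and 12 genes higher in the whole table (0.0602%). Its unadjusted p was under 0.05 for 26 of 41, all higher after IC, against 4.79% of all tested genes. By limma-voom 0 of 41 were called (all tested genes higher, 0.125%), and 19 of 41 had an unadjusted p under 0.05 and were higher (all tested genes, 5.25%).

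In 14 of 41 genes every IC value was above every vehicle value, against 8.09% of all tested genes, and in 0 of 41 was every IC value below (all tested genes, 7.67%). These were Ifit3b, Ifitm1, Bst2, Oas1a, Oasl2, Eif2ak2, Adar, Samhd1, Isg20, Mx2, Helz2, Xaf1, Samd9l and Ifi35. IC replicates 1 and 2 alone were both above all vehicle values in the same 14 genes, for which the share over all tested genes was 13.2%. Of the 7 called genes, Oasl1 was the one whose groups overlapped.

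IC replicate 3 was the highest of the 6 libraries in 38 of 41 genes, against 18.2% of all tested genes. The exceptions were Ifitm1, highest in IC replicate 1, Ifi27, highest in IC replicate 2, and Ifitm2, highest in vehicle replicate 2. Its median level over the set was 1.83 times the vehicle mean, with a range of 0.913 to 15.5, and it was at least 2-fold above that mean in 18 of 41 genes (all tested genes, 3.74%). IC replicate 1 had a median of 1.21 and a range of 0.861 to 2.49, and was at least 2-fold above in 3 of 41 genes (all tested genes, 3.28%). In IC replicate 2 the median was 1.06 and the range 0.694 to 1.93, with 0 of 41 genes at least 2-fold above (all tested genes, 3.99%). The antiviral genes were thus most raised in IC replicate 3, less so in IC replicate 1, and near the vehicle level in IC replicate 2. Values above all 3 vehicle libraries were found for 39 genes in IC replicate 3, 27 in IC replicate 1 and 15 in IC replicate 2, against 26.3%, 23.6% and 25.1% of all tested genes. Vehicle replicate 1 had the lowest mean log2 level of the 41 genes, at 9.79, with 10.11 and 9.97 in vehicle replicates 2 and 3, and 10.34, 10.05 and 11.18 in IC replicates 1, 2 and 3.

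**Figure D1:**
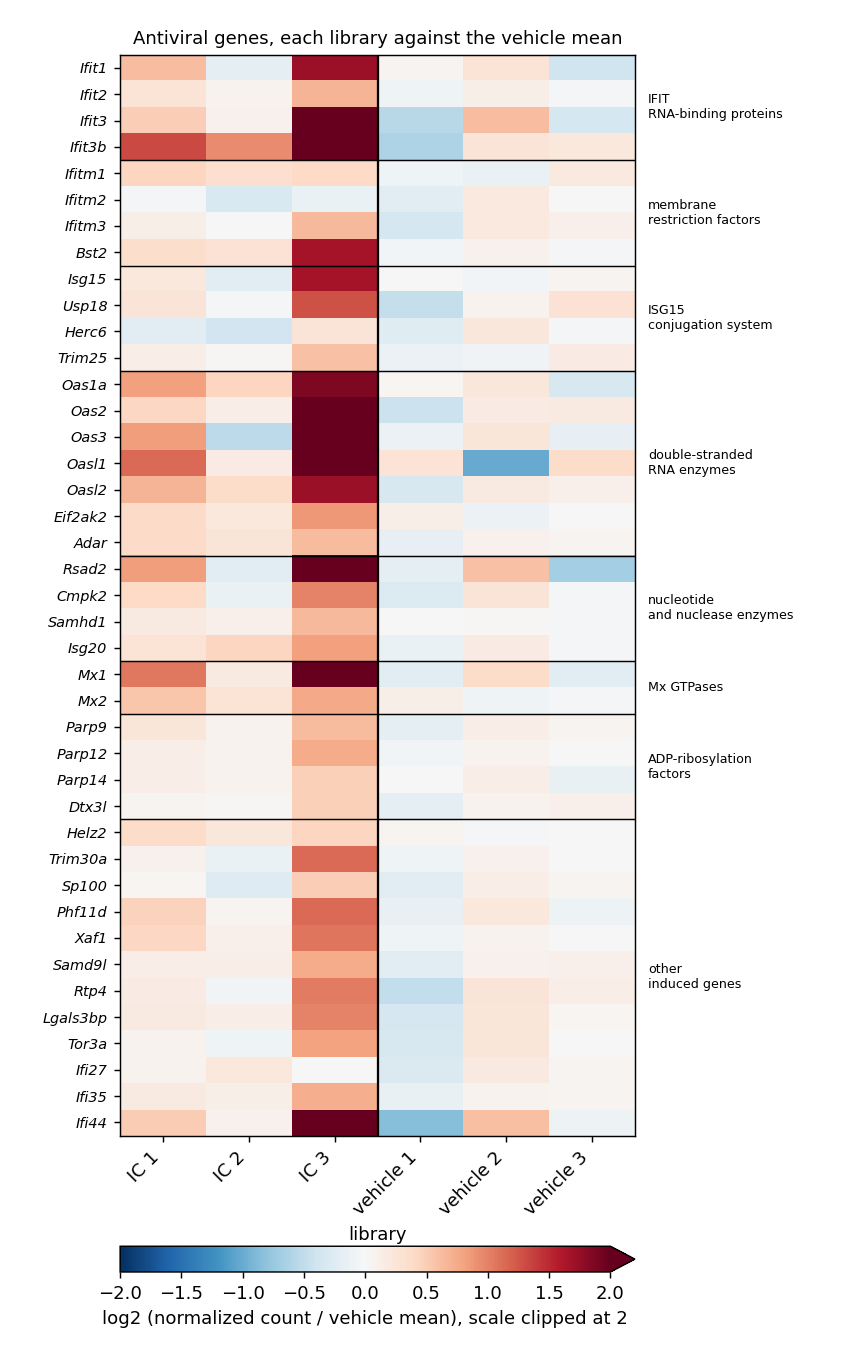
Each row is 1 of the 41 antiviral genes, grouped by function, and each column is 1 library, with colour for the log2 ratio of its normalized count to the mean of the 3 vehicle libraries (red higher, blue lower, clipped at 2). IC replicate 3 is the reddest column, being highest in 38 of 41 genes, and IC replicate 2 is close to the vehicle columns.

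The contents of IC replicate 3 beside its antiviral genes were as follows. Its summed macrophage and leukocyte markers, 25.6 CPM, were the lowest of the 6 libraries, and it was highest in 0 of the 5 tested markers. Its summed skeletal muscle (16.3), endothelial (192), mural cell (397) and Schwann cell (20.8) markers, in CPM, were also the lowest of the 6, as was the lymphocyte marker Cd79a (1.20), and the neutrophil marker S100a8 was at most 0.261 in any library. Plasmacytoid dendritic cells are known for interferon secretion, and their defining markers Siglech and Cox6a2 were not analysed here. Of the rest of that list, Ccr9 was highest in IC replicate 3, at 0.241 CPM. Irf8 was at 13.8 CPM in IC replicate 3 and 12.7 to 20.4 in the other 5 libraries, Klk1 was at 0.740 and 0.265 to 1.42, and Tcf4, which fibroblasts also express, was at 300.0 CPM in IC replicate 3 and 330.3 to 357 in the other 5 libraries. The part of these cell types in the result was not tested. Its fibroblast marker sum, 46047 CPM, lay between the lowest and highest of the vehicle libraries. Of the 9 markers in that sum, IC replicate 3 was the highest library in 2 (all tested genes, 18.2%). These were Pdpn, at 170.5 CPM against 128.3 to 143.3 in the other 5 libraries, and Prg4, at 473.0 against 177.7 to 464.7.

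**Figure D2:**
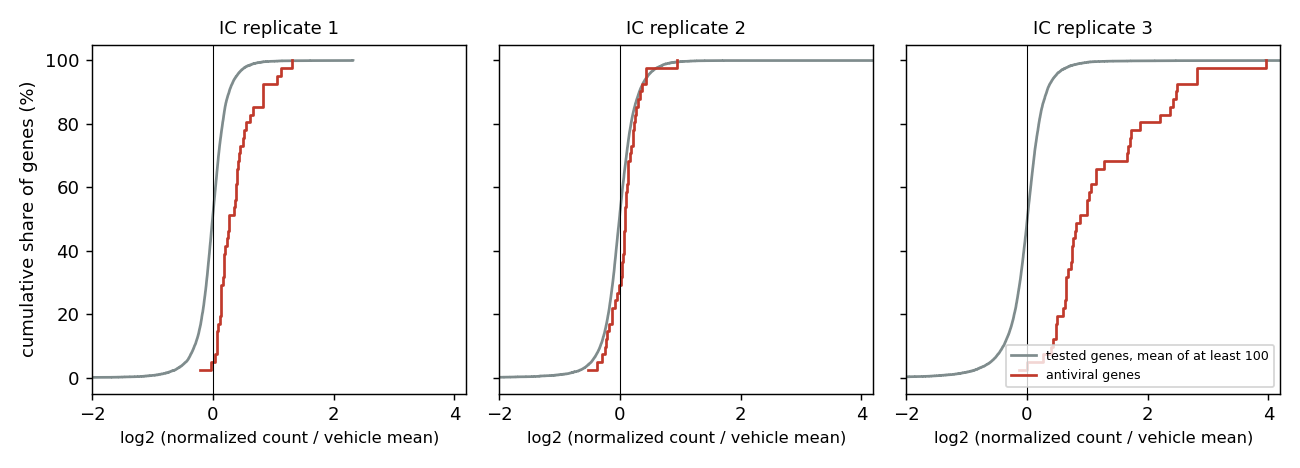
Each panel gives, for 1 IC library, the cumulative share of genes (%) below a log2 ratio to the vehicle mean, for the 41 antiviral genes (red) and for the more abundant tested genes, with a mean of 100 normalized counts or more (grey). The red line lies far to the right in IC replicate 3 (median 1.83-fold), less so in IC replicate 1 (1.21-fold), and close to the grey line in IC replicate 2 (1.06-fold).

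Without IC replicate 3, DESeq2 called 2 of 41 genes higher (Ifit3b and Helz2) and 0 lower, against 0.622% of all tested genes called higher. The median log2 fold change of the set was then 0.17, with 36 genes above 0 and 5 below, and 7 of 41 had an unadjusted p under 0.05 in the higher direction (all tested genes, 3.94%). The number of called antiviral genes was 12 without IC replicate 2, 5 without IC replicate 1, 4 without vehicle replicate 1, 4 without vehicle replicate 2 and 2 without vehicle replicate 3. In the same order, 149, 152, 328, 155 and 149 of all 19925 tested genes were called higher.

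**Figure D3:**
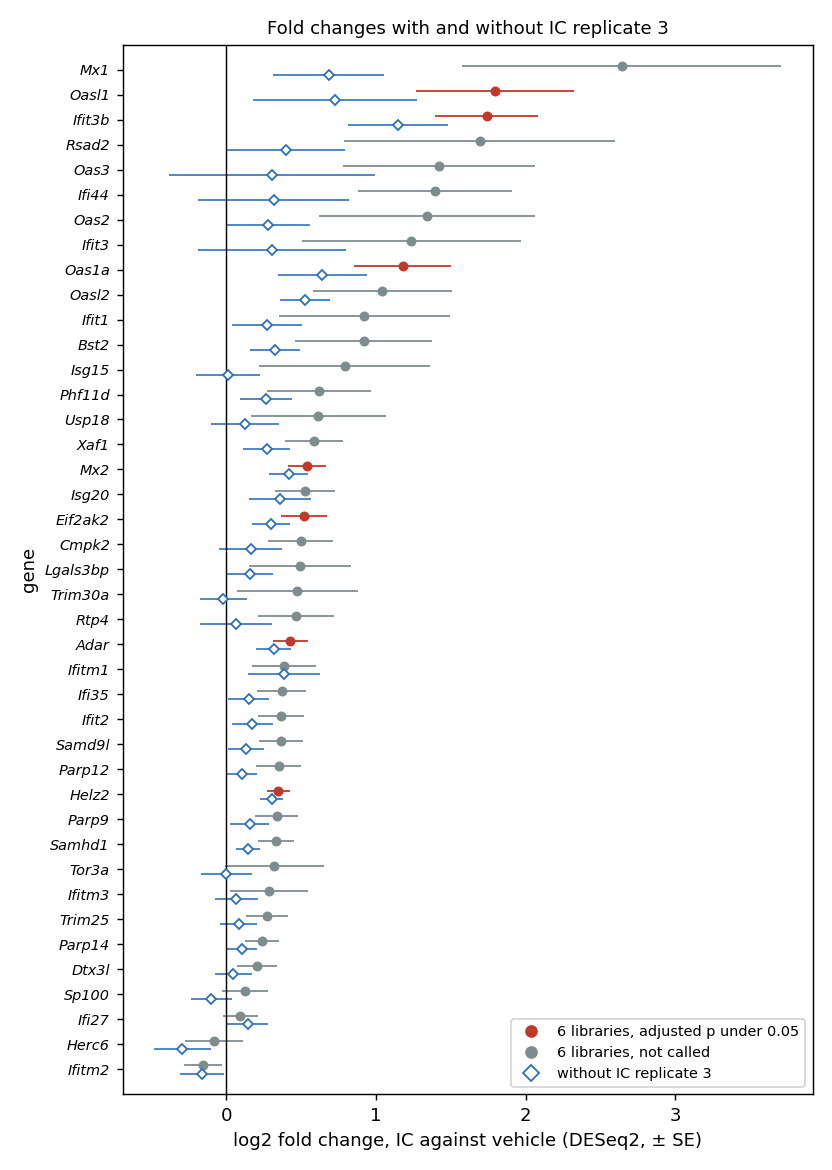
Each gene has its log2 fold change between IC and vehicle from DESeq2, with the SE as a bar, from all 6 libraries (circles, red where the adjusted p was under 0.05) and without IC replicate 3 (open diamonds). The median falls from 0.49 to 0.17 without that library, while Helz2, Mx2 and Adar move least of the called genes and Mx1 and Rsad2 move most of the way to 0.

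The response element was looked for in the bases before each start site, as a description of the set. The genes were chosen for a textbook antiviral or interferon-induced role. A share above that of all genes would follow from that choice and says nothing about IC. RefSeq promoters on GRCm38.p6 were matched for 32 of the 41 genes, and the core GAAANNGAAA was searched on both strands (TTTCNNTTTC on the other) within 250 bases before the start. It was present for 10 of 32 genes (31.2%: Ifit1, Ifit3, Ifit3b, Ifitm2, Bst2, Isg15, Oas1a, Oas3, Rsad2 and Trim30a), against 2.98% of 32851 promoters in all and 3.13% of 12282 tested genes with a promoter. The gamma-activated site TTCNNNGAA was present for 6 of 32 (18.8%) against 7.02% of all promoters. Stretches that hold the core are printed for 7 of the 10 genes, chosen after their values were seen, to show how the copies lie, and 1 stretch is printed for Helz2, the most abundant called gene, which has no copy in the window. Capitals mark the core, and copies that overlap run together. The stretches, all on GRCm38.p6 and read in the direction of the gene, lie at chr19:34640769-34640828, plus strand (Ifit1); chr19:34583359-34583438, plus strand (Ifit3); chr19:34607755-34607834, plus strand (Ifit3b); chr4:156200849-156200908, minus strand (Isg15); chr5:120907526-120907605, minus strand (Oas1a); chr12:26456533-26456592, minus strand (Rsad2); chr8:71537563-71537622, minus strand (Bst2); and chr2:181242028-181242107, minus strand (Helz2).
Ifit1: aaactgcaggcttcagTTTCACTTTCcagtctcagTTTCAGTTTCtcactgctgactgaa
Ifit3: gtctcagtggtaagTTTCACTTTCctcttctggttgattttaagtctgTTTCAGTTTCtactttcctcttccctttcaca
Ifit3b: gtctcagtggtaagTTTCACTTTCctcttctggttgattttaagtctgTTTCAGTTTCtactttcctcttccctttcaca
Isg15: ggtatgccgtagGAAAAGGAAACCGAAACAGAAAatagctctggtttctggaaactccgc
Oas1a: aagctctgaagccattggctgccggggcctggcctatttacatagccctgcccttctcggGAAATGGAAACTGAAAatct
Rsad2: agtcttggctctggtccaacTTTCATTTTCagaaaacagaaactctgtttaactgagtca
Bst2: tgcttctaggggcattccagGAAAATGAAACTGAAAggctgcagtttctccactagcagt
Helz2: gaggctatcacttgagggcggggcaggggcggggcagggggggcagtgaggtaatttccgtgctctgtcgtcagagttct

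The stretches before Ifit3 and Ifit3b were identical at 80 of 80 bases, so these genes are not separate cases among the 10. Isg15 held 3 overlapping copies in 1 run, and Oas1a and Bst2 held 2 overlapping copies each. The 10 genes with the core had a median of 3.47 times the vehicle mean in IC replicate 3 (range 0.913 to 7.08), and 9 of 10 were at least 2-fold above it. The 22 without it had a median of 1.67 (range 1.20 to 7.07), and 5 of 22 were at least 2-fold above. In IC replicate 1 the medians were 1.48 with the core and 1.21 without it. In IC replicate 2 the order turned, with 0.896 for genes with the core and 1.08 for those without. Of the genes called by DESeq2, 2 had the core (Ifit3b and Oas1a), 4 did not, and Mx2 was not matched. No match says only that these letters are not in this window. Ifitm2, which holds the core, was the gene with the lowest fold in IC replicate 3, so a match in these letters did not go with a rise in every case. The part of the core in these folds was not tested.

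The IFIT proteins bind foreign RNA through its ends and hold it back from the ribosome. Of 4 tested genes, 1 was called higher (all tested genes, 1.03%) and 0 lower (1.07%), and the median log2 fold change was 1.08. Ifit3b, a near copy of Ifit3 (chr19:34607970-34613401), had normalized counts of 390.1, 303 and 874 in IC replicates 1, 2 and 3 and 102, 187 and 181 in vehicle replicates 1, 2 and 3, an order kept for all values that follow. All 3 IC libraries were above all vehicle libraries, with IC replicate 3 more than 2-fold above the other two. The mean was 522 ± 308 against 157 ± 47.2 (SD, n = 3 each), which as a log2 fold change was 1.74 ± 0.34 (DESeq2 adjusted p = 0.000102). Without IC replicate 3 it was 1.15 (adjusted p = 0.0353), and without vehicle replicate 2 it was 1.89 and no longer passed (adjusted p = 0.155). Of the stretches of 100 bases in Ifit3b transcripts, 27.4% were also in those of Ifit3, so reads may have been split between the genes.

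Ifit1 (chr19:34640871-34650009), which binds RNA that lacks the cap marks of host messages, had the highest mean normalized count of the group. Its values were 2215, 1267 and 4713 after IC and 1488, 1738 and 1094 after vehicle. IC replicate 3 stood above the rest, while IC replicate 2 was inside the vehicle range. This log2 fold change of 0.92 ± 0.57 did not pass (adjusted p = 0.607) and was 0.27 without IC replicate 3. The other two, Ifit2 and Ifit3, were 1.61 and 4.60 times the vehicle mean in IC replicate 3 and did not pass (adjusted p = 0.254 and 0.571).

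Of the membrane restriction factors, 0 of 4 were called, and the median log2 fold change was 0.34. IFITM proteins sit in cell and endosome membranes and hinder viral fusion. Ifitm1 (chr7:140967221-140969825) had 336, 314 and 327 after IC and 235, 229 and 285 after vehicle. The groups did not overlap and the IC libraries lay close together, and IC replicate 3 did not stand out. Its log2 fold change was 0.39 ± 0.21 (adjusted p = 0.506), and 0.39 without IC replicate 3.

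Ifitm3 (chr7:141009586-141010770) was the most abundant of the 41 genes per length, with 247 RPKM (reads per kb of exon and per 1000000 counted) in the vehicle mean. Its normalized counts were 8769, 8168 and 12610.0 after IC and 6306, 9306 and 8645 after vehicle, so IC replicate 3 was highest and the other IC libraries were inside the vehicle range. The log2 fold change was 0.28 ± 0.26 (adjusted p = 0.815), and 0.068 without IC replicate 3. Ifitm2 (chr7:140954837-140955987) had the lowest log2 fold change of the set, -0.15 ± 0.13 (adjusted p = 0.770), with 2053, 1708 and 1922 after IC and 1811, 2403 and 2102 after vehicle. The groups overlapped, and 34.9% of its 100-base stretches were also in other transcripts, so its counts are uncertain.

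Bst2 (tetherin, chr8:71534255-71537456) holds budding virus particles on the cell surface. It had normalized counts of 683, 657 and 1695 after IC and 516, 567 and 525 after vehicle. The groups did not overlap, and the vehicle libraries were close together, while IC replicate 3 was more than 2-fold above the other IC libraries. Its log2 fold change of 0.92 ± 0.46 did not pass (adjusted p = 0.416). It passed without IC replicate 1 (adjusted p = 0.0199) and without IC replicate 2 (adjusted p = 0.0129), and without IC replicate 3 it was 0.32 (adjusted p = 0.515).

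In the ISG15 conjugation system, 0 of 4 genes were called, the median log2 fold change was 0.44, and 0 had groups that did not overlap. Isg15, a ubiquitin-like protein that is attached to newly made proteins, was chosen after its values were seen and had 485, 361 and 1333 after IC and 419.8, 406 and 434 after vehicle. IC replicate 3 was above the vehicle range by a wide margin, IC replicate 1 was just above it, and IC replicate 2 was below it. The log2 fold change was 0.79 ± 0.57 (adjusted p = 0.704), and 0.0098 without IC replicate 3. Trim25 (chr11:88999376-89020293), a ubiquitin ligase that acts in RNA sensing, had the highest mean normalized count of the group, with 2726, 2546 and 3754 after IC and 2297, 2378 and 2804 after vehicle. IC replicates 1 and 2 were inside the vehicle range, and the log2 fold change was 0.27 ± 0.14 (adjusted p = 0.450). Usp18, which removes Isg15 and restrains the interferon receptor, was 2.42 times the vehicle mean in IC replicate 3. Herc6, the main ligase for Isg15 in mice, was 1.20 times it, and its log2 fold change over all libraries was -0.083 ± 0.19 (adjusted p = 0.957).

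The double-stranded RNA enzymes held 4 of the 7 calls. Of 7 tested genes, 4 were called higher (all tested genes, 1.03%) and 0 lower (1.07%), with a median log2 fold change of 1.18. Without IC replicate 3 DESeq2 called 0 of the 7, and edgeR called 0 with all 6 libraries. IC replicate 3 was highest in all 7 (all tested genes, 18.2%), and IC replicate 1 was above all vehicle libraries in 7 (23.6%). Oas1a (chr5:120896256-120907521) makes the oligoadenylates that activate RNase L, which cuts RNA. It had 316, 241 and 653 after IC and 184, 208 and 143 after vehicle, so every IC library was above every vehicle library. The mean was 403 ± 219.6 against 178 ± 32.5 (SD, n = 3 each), or 1.18 ± 0.33 as a log2 fold change (adjusted p = 0.0176). It no longer passed without IC replicate 3 (0.64, adjusted p = 0.410), without vehicle replicate 1 (adjusted p = 0.0651) or without vehicle replicate 3 (adjusted p = 0.252). Of its 100-base stretches, 40.9% were also in Oas1g, so its counts are uncertain.

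Oasl1 (chr5:114923240-114937915) lacks the synthase activity of its relatives and restrains translation of Irf7. Its normalized counts were 149.9, 76.5 and 485 after IC and 82.8, 34.0 and 88.8 after vehicle. The groups overlapped, since IC replicate 2 was below vehicle replicates 1 and 3, and 1 library carried most of the difference. The log2 fold change was 1.79 ± 0.53 (adjusted p = 0.0328) with 6 libraries and 0.73 (adjusted p = 0.775) without IC replicate 3. The call was also lost without IC replicate 1 (adjusted p = 0.0765) and without vehicle replicate 1, 2 or 3 (adjusted p = 0.428, 0.724 and 0.125). Oasl2 (chr5:114896936-114912234), an active synthase, had 2936, 2364 and 6089 after IC and 1479, 2077 and 1969 after vehicle, with no overlap. Its change of 1.04 ± 0.46 (log2) did not pass (adjusted p = 0.306). Oas2 and Oas3 were 5.17 and 5.55 times the vehicle mean in IC replicate 3, and both missed the threshold (adjusted p = 0.492 and 0.319).

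Eif2ak2 (chr17:78852564-78882573) codes for PKR, a kinase that halts translation when it meets double-stranded RNA. It had normalized counts of 2053, 1820.2 and 2888 after IC and 1711, 1455 and 1560.0 after vehicle. The groups did not overlap, and IC replicate 3 was the highest. The mean was 2254 ± 562 against 1575 ± 129 (SD, n = 3 each), with a log2 fold change of 0.52 ± 0.15 (adjusted p = 0.0359). It missed the threshold without IC replicate 3 (0.30, adjusted p = 0.340), IC replicate 1 (adjusted p = 0.0856), vehicle replicate 2 (adjusted p = 0.252) or vehicle replicate 3 (adjusted p = 0.266). 2 genes on the opposite strand overlap it, and the strand setting of the counting is not given, so reads may be mixed.

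Adar (chr3:89715022-89753446), which edits adenosine to inosine in double-stranded RNA and so keeps host RNA from being sensed, had the highest mean normalized count of the group. The values were 3419, 3137 and 4071 after IC and 2350.0, 2806 and 2746 after vehicle. Every IC value was above every vehicle value, and IC replicate 3 was the highest. With means of 3542 ± 479 against 2634 ± 248 (SD, n = 3 each), the log2 fold change was 0.43 ± 0.12 (adjusted p = 0.0161). The call was lost without IC replicate 3 (0.32, adjusted p = 0.175), IC replicate 1 (adjusted p = 0.0726), vehicle replicate 1 (adjusted p = 0.0900) or vehicle replicate 3 (adjusted p = 0.0876), with a log2 fold change of at least 0.32 in each.

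Of the nucleotide and nuclease enzymes, 0 of 4 were called, and the median log2 fold change was 0.51. Samhd1 (chr2:157097533-157135265), which degrades the nucleotides that reverse transcription needs, had 5754, 5455 and 7925 after IC and 5049, 5153 and 4999 after vehicle. The vehicle libraries lay close together and all IC libraries were above them, for a log2 fold change of 0.33 ± 0.12 (adjusted p = 0.145). Isg20 (chr7:78913424-78920396), an RNA exonuclease, also had groups that did not overlap, with 448, 501 and 654 after IC and 337, 415 and 362 after vehicle. Its log2 fold change was 0.53 ± 0.20 (adjusted p = 0.171), and 0.36 without IC replicate 3. Rsad2 (viperin), which makes a chain-ending nucleotide, was chosen after its values were seen, with 542, 260.5 and 2152 after IC and 266, 457 and 189.7 after vehicle. IC replicate 3 was 7.08 times the vehicle mean while IC replicate 2 was 0.856 times it, and the log2 fold change of 1.70 ± 0.91 did not pass (adjusted p = 0.482). Cmpk2, its neighbour on chromosome 12 and a mitochondrial nucleotide kinase, was 1.99 times the vehicle mean in IC replicate 3 (adjusted p = 0.302).

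Mx GTPases form rings around viral ribonucleoproteins, and the pair gave the clearest contrast between size and spread. Mx1 (chr16:97447035-97462907), which C57BL/6 mice carry in a form that yields no working protein, had normalized counts of 318, 174 and 2373 after IC and 130.4, 197 and 131 after vehicle. IC replicate 3 was 15.5 times the vehicle mean, IC replicate 1 was 2.08 times it, and IC replicate 2 was inside the vehicle range. The log2 fold change of 2.64 ± 1.07 was the highest of the 41 genes and did not pass (adjusted p = 0.221), and it was 0.68 without IC replicate 3.

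Mx2 (chr16:97535308-97560900) had a smaller fold change and passed. It had 2878, 2378 and 3321 after IC and 2131, 1858 and 1919 after vehicle, with all IC libraries above all vehicle libraries. The mean was 2859 ± 472 against 1969 ± 143 (SD, n = 3 each), which as a log2 fold change was 0.54 ± 0.13 (adjusted p = 0.00231). Without IC replicate 3 it was 0.42 (adjusted p = 0.0576), and without vehicle replicate 3 it was 0.52 (adjusted p = 0.0633), both over the threshold.

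**Figure D4:**
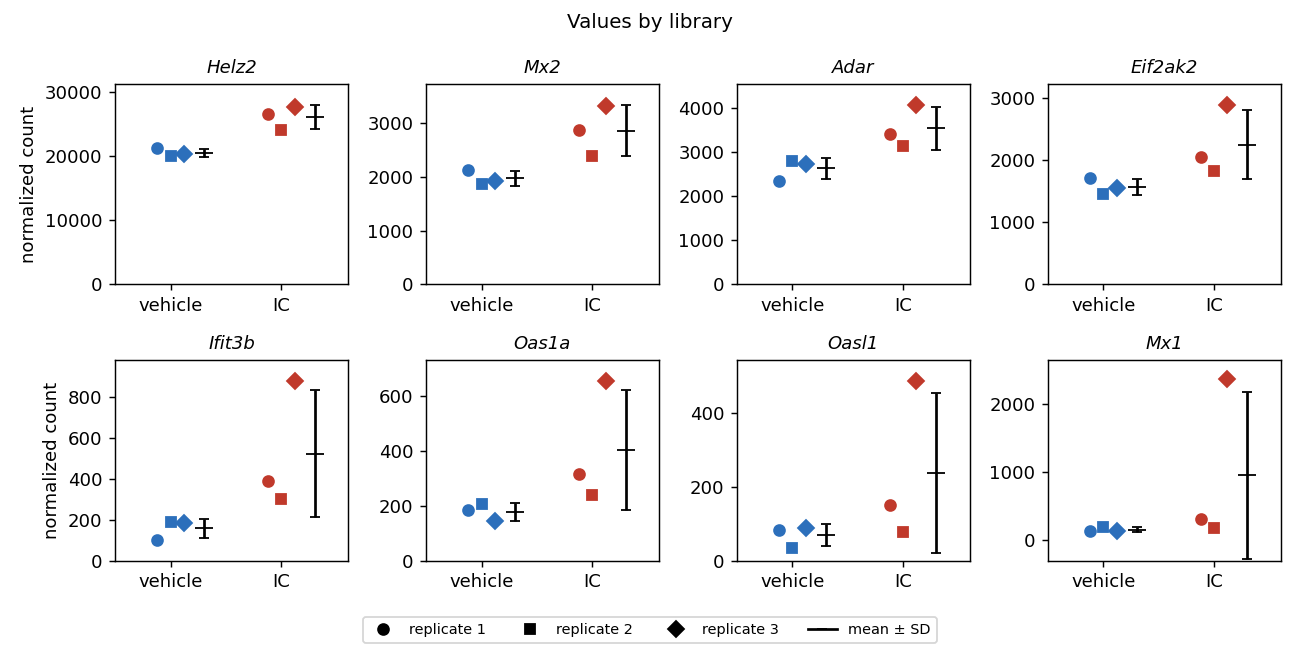
Normalized counts of the 7 called genes and of Mx1, 1 panel each, with the 3 vehicle (blue) and 3 IC (red) libraries as points, shaped by replicate number, and the mean ± SD (n = 3) in black. In Helz2, Mx2, Adar, Eif2ak2, Ifit3b and Oas1a all 3 IC libraries lie above all vehicle libraries, and in Oasl1 the groups overlap. In Mx1, IC replicate 3 (2373) stands far above the other 5 libraries (130 to 318).

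The ADP-ribosylation factors, which modify viral and host proteins, showed 0 of 4 called and a median log2 fold change of 0.29. IC replicate 3 was 1.39 to 1.68 times the vehicle mean in these genes. Parp14 (chr16:35832874-35871544), with the highest mean normalized count, had 8148, 7856 and 10381 after IC and 7507, 8126 and 6722 after vehicle. IC replicate 1 was level with vehicle replicate 2 and IC replicate 2 was inside the vehicle range, and the log2 fold change was 0.24 ± 0.11 (adjusted p = 0.354). Parp9 and its partner Dtx3l overlap at their starts on opposite strands, so reads may be shared between them. Usp18, Herc6, Oas2, Oasl1, Adar, Trim30a, Sp100, Rtp4 and Ifi35 also overlap a gene on the opposite strand and carry the same uncertainty.

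Among the 12 other induced genes, 1 was called higher (all tested genes, 1.03%) and 0 lower (1.07%), and the median log2 fold change was 0.42. Helz2 (chr2:181227615-181242027), a helicase and nuclear receptor coactivator, had 26515, 24092 and 27735 after IC and 21258, 19987 and 20344 after vehicle. All IC libraries were above all vehicle libraries, and IC replicate 3 was little above IC replicate 1. The mean was 26114 ± 1854 against 20529.9 ± 655 (SD, n = 3 each), which as a log2 fold change was 0.35 ± 0.077 (adjusted p = 0.000870). It was the only one of the 41 genes that DESeq2 called with each of the 6 libraries left out in turn, with log2 fold changes of 0.30 to 0.40. By edgeR its adjusted p was 0.102.

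Xaf1, Samd9l and Ifi35 also had groups that did not overlap. Xaf1 (chr11:72301629-72313733), a partner of the apoptosis inhibitor XIAP, had 1149, 926 and 1799 after IC and 815, 903 and 865 after vehicle, a log2 fold change of 0.59 ± 0.20 (adjusted p = 0.0863). It passed without IC replicate 2 (adjusted p = 0.0104). Samd9l (chr6:3372257-3399572), an inhibitor of translation, had 4253, 4267 and 6500.4 after IC and 3350.3, 4137 and 4197 after vehicle, so IC replicates 1 and 2 were just above the highest vehicle value, and its log2 fold change was 0.36 ± 0.15 (adjusted p = 0.222). The margin was similarly small for Ifi35 (chr11:101448407-101458698), with 1277, 1222 and 1875 after IC and 1019, 1190.2 and 1175 after vehicle, and its log2 fold change was 0.37 ± 0.16 (adjusted p = 0.297). The remaining 8 genes had log2 fold changes of 0.095 (Ifi27) to 1.39 (Ifi44), and none passed. Ifi27 and Lgals3bp were among the most abundant genes, with 64.9 and 23.2 RPKM in the vehicle mean, and in IC replicate 3 they were 0.995 and 1.99 times that mean.

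Levels per length in the vehicle libraries ran from 0.0960 RPKM for Oas3, 0.288 for Ifi44, 0.548 for Oasl1 and 0.837 for Mx1 to 37.0 for Helz2, 64.9 for Ifi27, 66.6 for Ifitm2 and 247 for Ifitm3. By mean level over all 6 libraries, the lower 20 genes (0.177 to 7.91) had a median of 2.20 times the vehicle mean in IC replicate 3, and 13 of 20 were at least 2-fold above it. The higher 21 genes (8.35 to 274.6) had a median of 1.66, and 5 of 21 were at least 2-fold above. The median fold in IC replicate 3 was thus higher in the lower 20 genes, with exceptions on both sides. Ifit3, at 9.74 RPKM in the vehicle mean, was 4.60 times that mean in IC replicate 3, and Herc6, at 1.67 RPKM, was 1.20 times it. The vehicle mean is the divisor of the fold and part of the level, so level and fold are not independent.

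**Figure D5:**
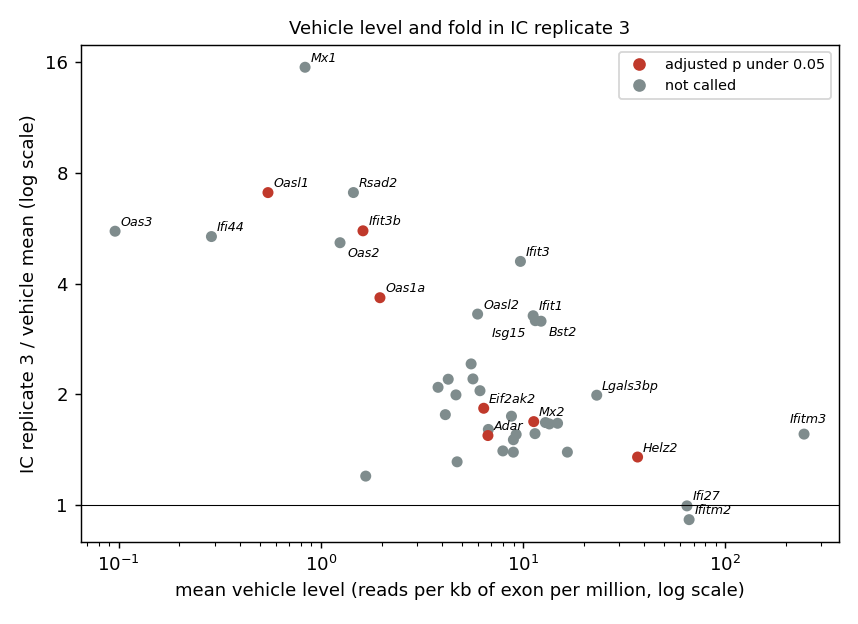
Each point is 1 of the 41 genes, with its mean vehicle level in RPKM (x, log scale) and the ratio of IC replicate 3 to the vehicle mean (y, log scale), which both contain the vehicle mean. Mx1, Oasl1 and Rsad2 have low vehicle levels and ratios of 15.5, 7.07 and 7.08, and Ifitm3, Ifi27, Ifitm2 and Helz2, at the right, have ratios of 0.913 to 1.56.

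The genes that sense nucleic acid and carry the interferon signal were described in the same fit. Of 32 tested, DESeq2 called 4 higher (Stat2, Socs3, Ddx58 and Zbp1) and 0 lower, against 1.03% of all tested genes called higher. edgeR and limma-voom each called 0, with lowest adjusted p-values of 0.137 and 0.122 and with 10 genes higher at an unadjusted p under 0.05 by either tool (all tested genes, 4.79% and 5.25%). With 1 surrogate variable Ddx58, Socs3 and Zbp1 were no longer called (adjusted p = 0.538, 0.0758 and 0.0666). Of the 32, 26 had a log2 fold change above 0 (all tested genes, 49.6%), the median was 0.11, and IC replicate 3 was highest in 15 (all tested genes, 18.2%). Stat2, the factor specific to type I and III interferon signalling, had 7418, 6651 and 9854 after IC and 5695, 5064 and 5784 after vehicle. The groups did not overlap, and the log2 fold change was 0.53 ± 0.12 (adjusted p = 0.00197), 0.35 without IC replicate 3 (adjusted p = 0.0286). Without vehicle replicate 2 its adjusted p was 0.0658. Its partner Irf9 did not pass, with 0.26 ± 0.082 on the log2 scale (adjusted p = 0.0637). It passed by DESeq2 with total-count scaling (adjusted p = 0.031) and with a filter at a mean normalized count of 100 (adjusted p = 0.0498). Irf9 values were 5078, 4749 and 4951 after IC and 3955, 4255 and 4159.6 after vehicle, which did not overlap.

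Ddx58 (RIG-I), a sensor of viral RNA, had 3206, 3047 and 5028 after IC and 2368, 2286 and 2691 after vehicle, again without overlap. Its log2 fold change was 0.62 ± 0.16 (adjusted p = 0.00587), and it missed the threshold without IC replicate 3 (0.35, adjusted p = 0.0711), vehicle replicate 1 (adjusted p = 0.445) or vehicle replicate 2 (adjusted p = 0.606). Zbp1, a sensor of Z-form nucleic acid, had 781, 866 and 1599.5 after IC and 618, 710.3 and 639.6 after vehicle. Its log2 fold change was 0.72 ± 0.22 (adjusted p = 0.0449), and the call was kept only when IC replicate 1 was the library left out (adjusted p = 0.0141); the other adjusted p-values were 0.0519 to 0.470. Socs3, an inhibitor of cytokine signalling induced by Stat3, had 55021, 53165 and 55069 after IC and 46527, 45995 and 47746 after vehicle, with IC replicate 3 level with IC replicate 1. With a log2 fold change of 0.22 ± 0.064 (adjusted p = 0.0305), the call did not hold without IC replicate 1, without IC replicate 3 or without vehicle replicate 2 (adjusted p = 0.108, 0.0644 and 0.0824). For Irf7, which amplifies interferon production, the change was 0.48 ± 0.15 (adjusted p = 0.0656), and it passed without IC replicate 2 (adjusted p = 0.0298). It also passed by DESeq2 with total-count scaling (adjusted p = 0.0491) and with a filter at a mean normalized count of 100 (adjusted p = 0.0498). The receptor chains Ifnar1 and Ifnar2 had 0.054 ± 0.094 and 0.08 ± 0.11 (adjusted p = 0.932 and 0.899). Interferon genes themselves, Ifnb1 included, were not analysed here.

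The guanylate-binding proteins and immunity-related GTPases are induced more by interferon gamma and act on vacuoles that hold microbes. Of 18 tested, 0 were called by DESeq2, which gave 4 of them no adjusted p, and 4 had an unadjusted p under 0.05 in the higher direction (all tested genes, 4.91%). edgeR called 0, with 3 higher at an unadjusted p under 0.05 (all tested genes, 4.79%), and limma-voom called 0, with 1 (5.25%). The median log2 fold change was 0.27, IC replicate 3 was highest in 15 (all tested genes, 18.2%), and its median was 1.85 times the vehicle mean, with 6 genes at least 2-fold above (3.74%). Irgm1, with the highest mean normalized count, had 5668, 5052 and 6345 after IC and 5412, 6340.1 and 5554 after vehicle, which overlapped (log2 fold change -0.02 ± 0.10, adjusted p = 0.983), and the sign of this value turned without IC replicate 2, without vehicle replicate 2 and with 1 surrogate variable. Higher values in IC replicate 3 were thus also seen in this list, and no test of a difference between the lists was made.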

How the data were processed

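The authors deposited raw counts per gene, made by trimming with Trim Galore, quality control with FastQC, alignment to mm10 with HISAT2 and counting with featureCounts; versions, annotation and strand setting are not given in the sources used here. Different library kits for total RNA are named in the labels and in the methods, and sva is given for batch removal without details. Groups came from the labels, which give no batch. A gene was kept if it reached 10 counts in 3 or more libraries, and was tested with DESeq2 (version 1.42.0, R 4.3.3; Wald test, default settings), Benjamini-Hochberg adjusted over all tested genes and called under 0.05. Normalized counts are counts divided by size factors, and levels per length used GENCODE M21 exons on GRCm38, the assembly that mm10 names, which also gave gene coordinates. Libraries of a group differed by more than counting noise (chi-square per degree of freedom 15.21 to 68.39).

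The antiviral genes and all lists were chosen with earlier results of these data known. Values are given for genes called, for genes whose groups did not overlap, for the most abundant gene of each functional group, for the highest and lowest fold change, and for called or preset signalling genes, of which 1 is not reported here. Alternatives were edgeR (version 4.0.16), limma-voom (limma version 3.58.1), other scaling (TMM, or total counts), other filters (none, a mean normalized count of 100, or independent filtering off), 1 surrogate variable (sva version 3.50.0), a replicate block and each library left out.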

Additional observations from a re-analysis of the deposited data

How the results depend on the processing

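The sign of the set's median held under every alternative run, with a median log2 fold change of 0.17 to 0.65 when each library was left out, while the number of calls did not. Over all tested genes, DESeq2 called 419, edgeR 37 (12 higher) and limma-voom 62 (25 higher). With each library left out, DESeq2 called 282 to 671 (124 to 328 higher), the most without vehicle replicate 1. Of the 41 antiviral genes, 7 were called by DESeq2, 0 by edgeR and 0 by limma-voom, and 2 to 12 with each library left out, 12 without IC replicate 2. edgeR without IC replicate 3, an alternative chosen after seeing the data, called 6 genes in all and 0 of the 41. The count of genes whose groups did not overlap was 14 (all tested genes, 8.09%), and 14 to 27 with each library left out. It was 27 without IC replicate 2 (all tested genes, 11.9%) and 23 without vehicle replicate 2 (12.6%). The share over all tested genes also rose whichever library was left out, to 11.9% to 15.8%. TMM, total-count scaling, no count filter and independent filtering off each kept the 7, and none of the scalings moved the median of all genes by more than 0.1. A mean of at least 100 left Oasl1 uncalled, and 1 surrogate variable lost Oasl1 and Eif2ak2 and gained Ifi44. That variable mostly set vehicle replicate 2 apart, at 0.908 against -0.262 to -0.129 in the other libraries. It is therefore not a check separate from leaving that library out. Replicate numbers did not pair the libraries (correlations of their deviations -0.0918, -0.164 and 0.025), and with the replicate block 320 genes and 5 of the 41 (Ifit3b, Oasl1, Adar, Mx2 and Helz2) were called. Among the 41, the sign of the log2 fold change turned without IC replicate 3 for Sp100 (-0.099), Trim30a (-0.020) and Tor3a (-0.00033), without vehicle replicate 1 for Ifi27 (-0.031), and without vehicle replicate 2 (0.045), without IC replicate 2 and with 1 surrogate variable for Herc6. It turned for Ifnar1 without IC replicate 3 (-0.0021 by DESeq2 and by edgeR; 0.10 at most with a library left out) and for Irgm1 with 1 surrogate variable (0.048), without IC replicate 2 (0.058) and without vehicle replicate 2 (0.055; -0.11 at least). With 3 libraries a group, IC replicate 3 decided most of the size of the fold changes, and the cause of its level was not tested.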
